A study of Sus scrofa with 4 samples.

Results

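The elastic fibre and lysyl oxidase genes are 10 genes of the 29263 listed in each count table. They were taken by name from the tables of the 4 libraries, and all 10 were found: ELN, FBN1, FBN2, MFAP2, MFAP4, MFAP5, EMILIN1, LOX, LOXL1 and LOXL2. The libraries came from lung of pigs with an LGR5-H2B-GFP knock-in, a genotype that both groups share. Cells were sorted into a bright fraction (GFP-HI, 2 libraries) and a fraction without fluorescence (GFP-NEG, 2 libraries), with biological replicates 1 and 2 in each. LGR5 is a receptor for R-spondins, which amplify Wnt signalling, and the fusion of green fluorescent protein to a histone marks nuclei of cells that transcribe it. A histone-bound label can outlast transcription, so bright cells may include some that no longer transcribe LGR5. The protocol in the labels covers adult and fetal animals together and does not assign a stage or an antibody gate to single libraries. The words adult pig occur only in the name of the deposited comparison table. GFP-NEG is defined by the lack of fluorescence and is not a matched cell type.

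Elastic fibres give the lung its recoil. Their core is cross-linked elastin, laid down on a scaffold of microfibrils that are built from fibrillins and coated with microfibril-associated glycoproteins and emilins. Lysyl oxidases are secreted copper enzymes that oxidise lysine side chains of elastin and collagen, which then form cross-links. In lung these genes are known from fibroblasts, smooth muscle and some endothelial, mesothelial and cartilage cells.

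LGR5 checked the sort. It had 3218 and 3073 counts in the GFP-HI libraries (replicates 1 and 2), against 10 and 7 in the GFP-NEG libraries, an edgeR log2 fold change of 7.03 ± 0.72 (SE). Totals per library reached 24200550 and 24689986 counts for GFP-HI, against 6292253 and 7045652 for GFP-NEG, so depth differed with the group. Levels below are library-scaled counts (CPM), scaled with edgeR's TMM factors, and 1 count was worth between 0.0453 and 0.155 CPM. The lowest member count in any library was 31 (FBN2 and LOXL1, GFP-NEG replicate 2), so depth did not limit detection of any member. CPM is not divided by transcript length, and levels are therefore compared between libraries and not between genes.

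Of the 10 genes, 9 rose in GFP-HI (edgeR quasi-likelihood test, Benjamini-Hochberg adjusted p under 0.05 over 19682 tested genes). LOXL2 did not pass. Among all tested genes 8.35% were called higher in GFP-HI and a further 27.6% lower. Fold changes of the members ran from 1.10 (LOXL2) to 4.29 (FBN2) on the log2 scale with a median of 2.75, against a median of -0.25 over all tested genes. For all 10 members both GFP-HI libraries lay above both GFP-NEG libraries, which held for 27.7% of tested genes (the opposite order held for 42.0%). DESeq2 called the same 9, with 6.91% of all genes called higher. Summed over the 10 genes, the level was 11310 and 7897 CPM in GFP-HI against 2143 and 486 CPM in GFP-NEG. In bulk libraries, fewer cells of a type and less RNA per cell cannot be told apart.

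**Figure D1:**
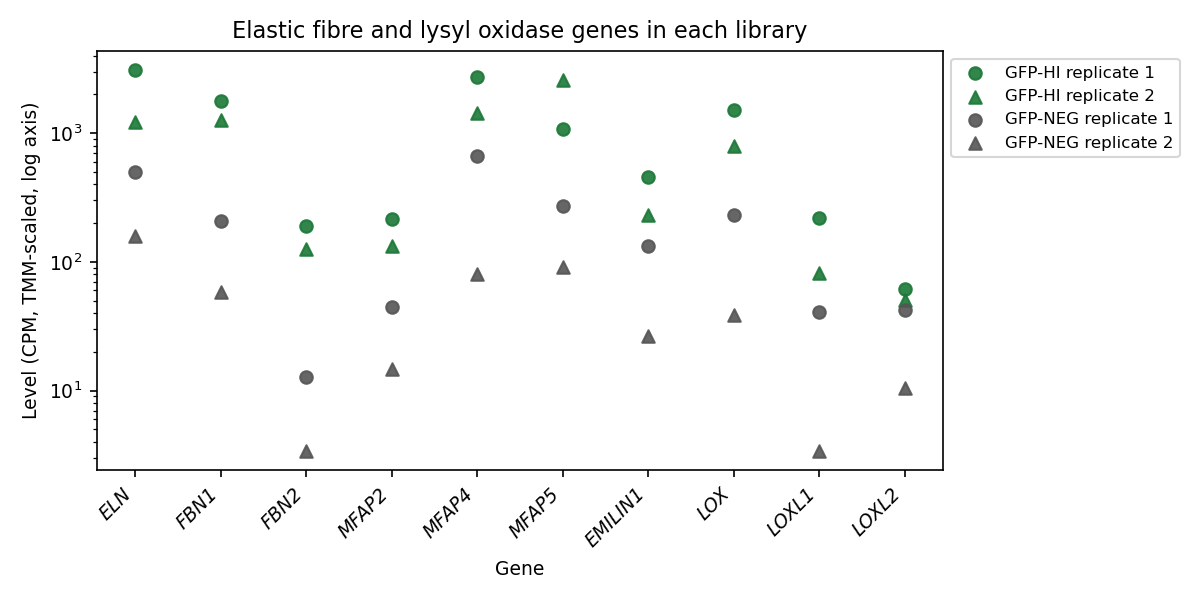
Level of each of the 10 genes (CPM, TMM-scaled, log axis) in the 4 libraries; green marks GFP-HI, grey GFP-NEG, circles replicate 1 and triangles replicate 2. Green points lie above grey points for every gene, with the narrowest gap for LOXL2, and the grey triangles (GFP-NEG replicate 2) are the lowest point of every gene.

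ELN encodes tropoelastin, the soluble monomer of the elastin core. Its level was 3100 and 1221 CPM in the GFP-HI libraries against 498 and 159 CPM in the GFP-NEG libraries. The groups did not overlap, and the lower GFP-HI library was at 2.45 times the level of the higher GFP-NEG library. The log2 fold change was 2.72 ± 0.95 (SE), a 6.58-fold difference, with an adjusted p of 0.015 (edgeR).

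FBN1 encodes fibrillin-1, the main microfibril protein of adult tissue, and FBN2 encodes fibrillin-2, best known from developing tissue. FBN1 was at 1759 and 1269 CPM in GFP-HI and at 209 and 58.0 CPM in GFP-NEG. Its log2 fold change was 3.50 ± 0.89 (SE), an 11.3-fold difference, with an adjusted p of 0.00052 (edgeR). FBN2 was at 188 and 125 CPM in GFP-HI and at 12.7 and 3.40 CPM in GFP-NEG, from 82 and 31 counts in the latter. It had the largest fold change of the 10 genes, 4.29 ± 0.62 (SE) on the log2 scale or 19.6-fold, with an adjusted p of 9.7e-10 (edgeR). Its lower GFP-HI library was at 9.80 times the level of its higher GFP-NEG library, the widest gap among the members. The authors' deposited table gives log2 fold changes of 3.50 for FBN1 and 4.29 for FBN2 from the same counts.

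Because scaling cancels within a library, the ratio of FBN2 to FBN1 counts can be followed without it. FBN2 counts were 10.7% and 9.83% of FBN1 counts in the GFP-HI libraries against 6.08% and 5.86% in the GFP-NEG libraries. Both fibrillins were higher in GFP-HI, and the ratio of FBN2 to FBN1 was higher in both GFP-HI libraries as well. ELN ran the other way against FBN1: there were 1.76 and 0.962 ELN counts per FBN1 count in GFP-HI against 2.38 and 2.74 in GFP-NEG. These ratios were not tested and were chosen after the values were seen.

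MFAP2 and MFAP5 encode the small microfibril-associated glycoproteins MAGP-1 and MAGP-2, and MFAP4 encodes a fibrinogen-domain protein that binds elastin and fibrillin. MFAP2 was at 213 and 133 CPM in GFP-HI and at 44.9 and 14.8 CPM in GFP-NEG. MFAP4 was at 2721 and 1427 CPM against 659 and 81.1 CPM. The GFP-NEG replicates of MFAP4 differed 8.12-fold from each other, more than the 5.61-fold difference fitted between the groups. MFAP5 was at 1075 and 2562 CPM in GFP-HI and at 272 and 90.6 CPM in GFP-NEG. It was the only member whose level was higher in GFP-HI replicate 2 than in GFP-HI replicate 1, by 2.38 times. The 3 genes rose by 2.54 ± 0.58 (MFAP2), 2.49 ± 0.94 (MFAP4) and 3.33 ± 0.93 (MFAP5) on the log2 scale (SE), with adjusted p-values of 0.00015, 0.025 and 0.0016 (edgeR). The groups did not overlap for any of the 3.

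The MFAP5 to MFAP2 count ratio was 5.04 in GFP-HI replicate 1, 19.3 in GFP-HI replicate 2, and 6.07 and 6.12 in the GFP-NEG libraries. GFP-HI replicate 2 stood apart from the other 3 libraries in this ratio, and the groups overlapped.

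EMILIN1 encodes a glycoprotein found where elastin meets the microfibrils. It was at 455 and 231 CPM in GFP-HI and at 133 and 26.6 CPM in GFP-NEG. The lower GFP-HI library was at 1.74 times the level of the higher GFP-NEG library. EMILIN1 rose by 2.11 ± 0.65 (SE) on the log2 scale, with an adjusted p of 0.0048 (edgeR). Its GFP-NEG replicates differed 4.98-fold from each other, more than the 4.31-fold difference fitted between the groups.

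LOX and LOXL1 encode the lysyl oxidases best known for cross-linking elastin, and LOXL2 encodes a scavenger-receptor-domain family member known for acting on collagen. LOX was at 1520 and 797 CPM in GFP-HI and at 232 and 38.6 CPM in GFP-NEG. It rose by 3.10 ± 0.83 (SE) on the log2 scale, an 8.55-fold difference, with an adjusted p of 0.0011 (edgeR). LOXL1 was at 218 and 82.4 CPM in GFP-HI and at 40.7 and 3.40 CPM in GFP-NEG. It rose by 2.77 ± 0.58 (SE), with an adjusted p of 3.6e-05 (edgeR). Its GFP-NEG replicates differed 12.0-fold from each other, a spread that this SE does not measure. DESeq2 gave LOXL1 2.75 ± 0.83 (SE), with an adjusted p of 0.0046.

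LOXL2 was at 61.3 and 50.8 CPM in GFP-HI and at 42.1 and 10.4 CPM in GFP-NEG. The groups did not overlap, but the lower GFP-HI library was 1.21 times the higher GFP-NEG library. The GFP-NEG replicates of LOXL2 differed 4.04-fold from each other, more than the 2.14-fold difference fitted between the groups. Its log2 fold change of 1.10 ± 0.52 (SE) did not pass the threshold (adjusted p of 0.086, edgeR). With the replicate number as a block, it was 1.40 and passed, with an adjusted p of 0.037, so that all 10 members were called (8.67% of all genes). That a replicate number marks 1 animal rests on table headings that are partly misplaced, and is an assumption. The authors' deposited table lists LOXL2 at 1.10 with an adjusted p of 0.20, and each of the other 9 members with an adjusted p of 0.0112 or less. LOXL2 counts were 4.03% and 6.37% of LOX counts in GFP-HI against 18.1% and 27.0% in GFP-NEG, so that the ratio was lower in both GFP-HI libraries. The LOXL1 to LOX ratio overlapped between groups (14.3% and 10.3% against 17.5% and 8.81%). These ratios were not tested.

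**Figure D2:**
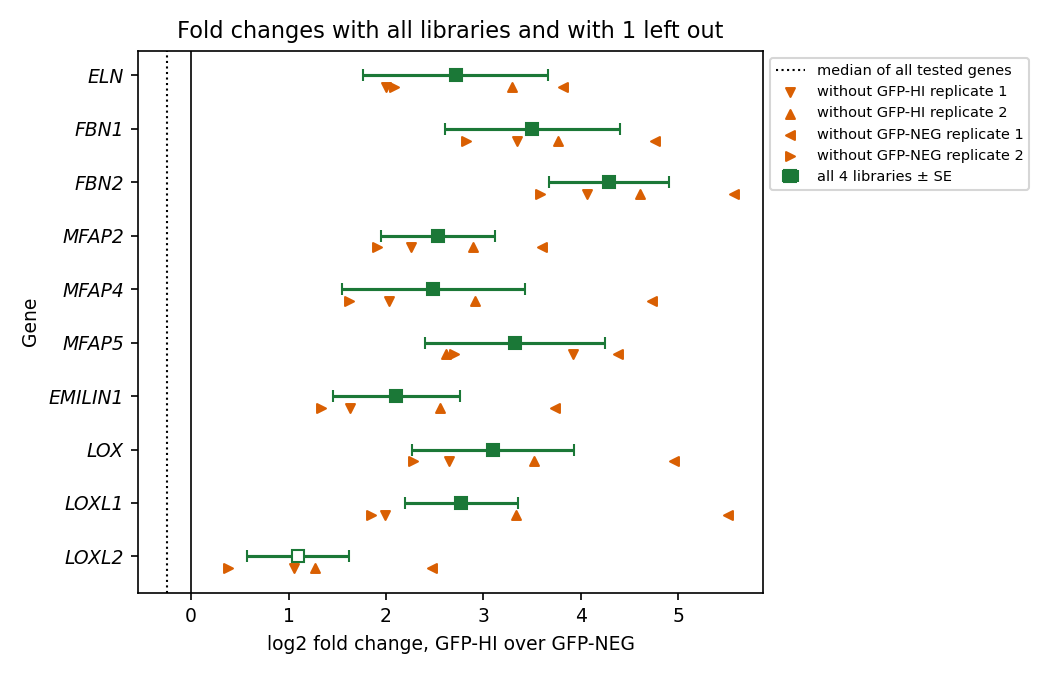
log2 fold change of GFP-HI over GFP-NEG for each gene (squares, ± SE; filled where the adjusted p was under 0.05) with the values when 1 library was left out (orange triangles) and the median of all tested genes (dotted line, -0.25). All triangles lie above 0, from 0.37 (LOXL2 without GFP-NEG replicate 2) to 5.57 (FBN2 without GFP-NEG replicate 1), and FBN2 keeps the highest value with all libraries.

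Replicate 1 was above replicate 2 for all 10 members in GFP-NEG, by 3.01-fold (MFAP5) to 12.0-fold (LOXL1), and for 9 of 10 in GFP-HI, by 1.21-fold (LOXL2) to 2.64-fold (LOXL1). Over all tested genes the median log2 ratio of replicate 1 to replicate 2 was -0.12 in GFP-NEG and 0.01 in GFP-HI, against 1.96 and 0.81 for the members. The difference between groups was therefore larger within replicate 2 (median 4.25 on the log2 scale) than within replicate 1 (2.33), and it was above 0 for all 10 genes in both. The number of calls depended on the GFP-NEG libraries. Without GFP-NEG replicate 2 the members' median was 1.99 and 1 gene kept its call (FBN2, with 1.23% of all genes then called higher), and without GFP-NEG replicate 1 it was 4.55 and all 10 were called (7.62%). Without GFP-HI replicate 1 the calls of ELN, MFAP4, EMILIN1 and LOXL1 were lost, which left 5 (5.23% of all genes), and without GFP-HI replicate 2 that of MFAP4, which left 8 (3.03%). Requiring at least 10 counts in at least 2 libraries ended the calls of MFAP4 and EMILIN1 (adjusted p of 0.085 and 0.056).

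Fibroblast markers were measured with a list of 8 genes (PDGFRA, PDGFRB, COL1A1, COL1A2, COL3A1, DCN, LUM and TCF21). Between the groups, the members and these markers moved in the same direction. Within GFP-HI they did not always do so: replicate 1 was above replicate 2 for 9 of the 10 members but for 5 of the 8 markers. Summed, these markers were at 79019 and 68817 CPM in GFP-HI against 25159 and 8970 CPM in GFP-NEG, and none was at 0 in any library. Of the 8, 5 were called higher (8.35% of all tested genes). All 8 had both GFP-HI libraries above both GFP-NEG libraries (27.7% of all tested genes), with a median log2 fold change of 2.36. COL1A1, a fibrillar collagen chain and the other main lysyl oxidase substrate, was at 19484 and 11907 CPM in GFP-HI and at 5644 and 2899 CPM in GFP-NEG. The log2 difference of 1.88 ± 1.53 (SE) did not pass the threshold (adjusted p of 0.36, edgeR). It was 1.79 within replicate 1 and 2.04 within replicate 2, a spread that this SE does not measure. DESeq2 called COL1A1 higher, at 1.84 with an adjusted p of 0.0035.

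Levels of the members were then expressed per 1000 CPM of the summed markers of the same library, without a test. On this scale FBN2 was at 2.38 and 1.81 in GFP-HI and at 0.506 and 0.379 in GFP-NEG, and FBN1 at 22.3 and 18.4 against 8.32 and 6.47. LOX was at 19.2 and 11.6 against 9.24 and 4.30. FBN1, FBN2, MFAP2, MFAP5 and LOX, 5 of the 10, had both GFP-HI libraries above both GFP-NEG libraries, as had 1.31% of all tested genes. ELN (39.2 and 17.7 against 19.8 and 17.7), MFAP4, EMILIN1 and LOXL1 overlapped between the groups. LOXL2 was lower in both GFP-HI libraries, at 0.775 and 0.738 against 1.67 and 1.16, as were 87.0% of all tested genes.

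The outcome depended on which markers served as the reference. Collagen message made up most of the sum, of which the 5 markers that are not collagens held 11661 and 17911 CPM in GFP-HI against 2141 and 526 CPM in GFP-NEG. DCN (6439 and 9662 CPM in GFP-HI) and LUM (3200 and 6522 CPM) made up most of this smaller sum in every library. Both were higher in GFP-HI replicate 2 than in GFP-HI replicate 1, unlike 9 of the 10 members. Against these 5 markers only FBN2 still had both GFP-HI libraries higher (16.2 and 6.97 per 1000 CPM against 5.95 and 6.46), as had 0.152% of all tested genes. On that scale FBN1 was at 151 and 70.9 in GFP-HI and at 97.8 and 110 in GFP-NEG, and the groups overlapped. MFAP2, EMILIN1 and LOXL2 were lower in both GFP-HI libraries, as were 97.2% of all tested genes. This scale and its second reference were chosen after the data were seen.

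**Figure D3:**
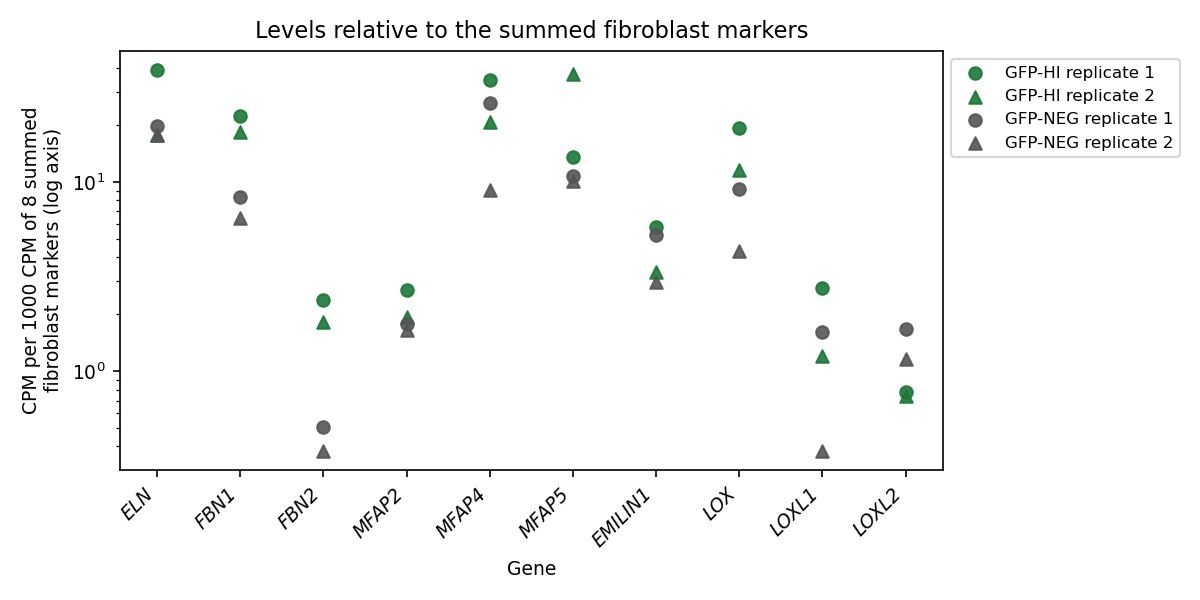
Level of each gene per 1000 CPM of the 8 summed fibroblast markers of the same library (log axis), with colours for groups and shapes for replicates as in the legend. FBN1 and FBN2 keep a clear gap between the GFP-HI and GFP-NEG points, ELN, MFAP4, EMILIN1 and LOXL1 overlap, and LOXL2 is lower in GFP-HI.

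Lists of markers for other cell types known to make elastic fibre proteins were lower in GFP-HI or mixed. The smooth muscle and pericyte list (9 genes, none at 0) summed to 1762 and 2465 CPM in GFP-HI and to 2663 and 395 CPM in GFP-NEG. Of the 9 genes, 1 was called higher and 4 lower, against 8.35% and 27.6% of all tested genes. Both GFP-HI libraries lay below both GFP-NEG libraries for 2 of the 9 (42.0% of all tested genes) and above for 2 (27.7%). DES and ACTG2, both called lower, overlapped between the groups. The gene called higher was CSPG4, at 495 and 202 CPM in GFP-HI and at 134 and 45.6 CPM in GFP-NEG. It rose by 1.96 ± 0.65 (SE) on the log2 scale (adjusted p of 0.0095, edgeR). Within this list ACTA2, smooth muscle actin, was at 751 and 1706 CPM in GFP-HI and at 1617 and 187 CPM in GFP-NEG, and the groups overlapped. ACTA2 was called higher without GFP-NEG replicate 1 (2.76, adjusted p of 0.043, edgeR) and not with all libraries (0.45, adjusted p of 0.73). MYH11, the smooth muscle myosin heavy chain, fell by 2.34 ± 0.58 (SE) on the log2 scale (adjusted p of 0.00039, edgeR). The MYH11 call was lost without GFP-NEG replicate 1 (-0.62, adjusted p of 0.53), without GFP-HI replicate 1 (adjusted p of 0.052) and without GFP-HI replicate 2 (adjusted p of 0.13). All 6 cartilage genes were called lower in GFP-HI, with summed levels of 288 and 131 CPM against 7072 and 921 CPM. All 7 endothelial genes were called lower as well, at 182 and 181 CPM against 1297 and 562 CPM. Of the 6 mesothelial markers, only WT1 and CALB2 are listed under these names, with at most 24 counts in any library.

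Of the 8 immune markers 6 were called lower in GFP-HI, with summed levels of 164 and 195 CPM against 1348 and 1889 CPM. PTPRC, the pan-leukocyte gene, was at 45.9 and 121 CPM against 687 and 1214 CPM. The 8 epithelial markers summed to 363 and 360 CPM in GFP-HI and to 792 and 193 CPM in GFP-NEG. Of these 8, 2 were called lower, a share near the 27.6% of all tested genes. No cartilage, endothelial, epithelial or immune marker was at 0 in any library. GFP-NEG replicate 1, in which the members were higher than in replicate 2, also held the higher summed level of the fibroblast, smooth muscle, cartilage, endothelial and epithelial lists, and the lower level of the immune list. The part of these cell types in the difference between the groups was not tested.

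**Figure D4:**
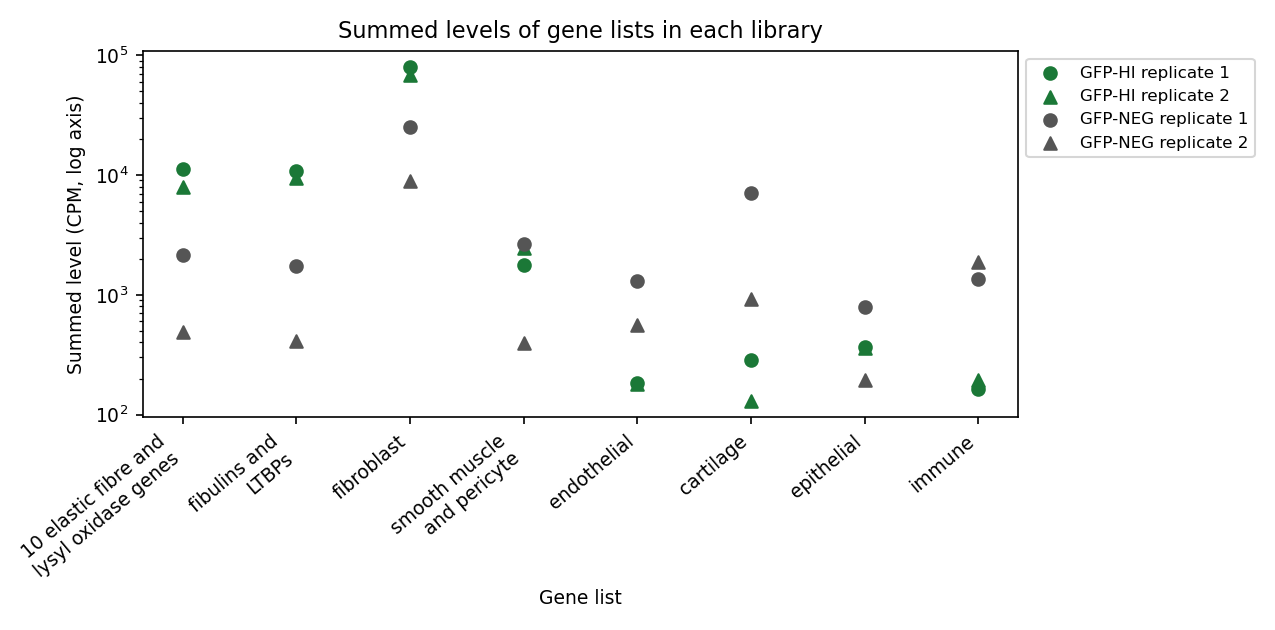
Summed level (CPM, log axis) of the 10 genes, of the fibulins and latent TGF-beta binding proteins (LTBPs), and of 6 marker lists in each library. The first 3 lists are higher in both GFP-HI libraries, the endothelial, cartilage and immune lists are lower in both, and the smooth muscle and epithelial lists overlap.

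A further 43 partner genes were examined, of which 41 are in the tables and 37 passed the filter on low counts. They pool fibulins and latent TGF-beta binding proteins, other family members, processing and transport genes, TGF-beta ligands and elastin-degrading enzymes. Of these 37, 19 were called higher and 7 lower in GFP-HI, and their median log2 fold change was 1.48. The share called higher among all tested genes is the 8.35% given above, and that called lower is 27.6%. CTSG and CTSK are not listed under these names. Without GFP-NEG replicate 2 the calls of 7 of these 26 genes held (FBLN1, MMRN1, ADAMTS17, ADAMTSL5, SLC2A10, MMP9 and MMP12). Without GFP-HI replicate 1 the calls of FBLN2, EFEMP2, LTBP4, MMRN2, TLL1, TLL2, PCOLCE and TGFB1 were lost, without GFP-HI replicate 2 those of FBLN2, EFEMP1, EFEMP2, MMRN2, TLL1, PCOLCE, TGFB1, TGFB3 and CTSL, and without GFP-NEG replicate 1 that of MMRN2.

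The fibulins and latent TGF-beta binding proteins rose together, with all 9 genes called higher (8.35% of all tested genes) and a median of 3.08. FBLN5, the fibulin that tethers elastin to microfibrils and cells, was at 1427 and 1791 CPM in GFP-HI and at 294 and 45.6 CPM in GFP-NEG, and rose by 3.24 ± 0.90 (SE) on the log2 scale (adjusted p of 0.0015, edgeR). EFEMP2, or fibulin-4, which brings LOX to tropoelastin, was at 444 and 278 CPM against 154 and 39.6 CPM and rose by 1.90 ± 0.65 (adjusted p of 0.013). LTBP4, which places fibulin-5 on microfibrils, was at 1876 and 885 CPM against 306 and 61.8 CPM and rose by 2.91 ± 0.86 (adjusted p of 0.0033). The largest rise was 4.40 ± 1.07 in FBLN1, a fibulin found in elastic fibre cores. LTBP2 (3.38), LTBP1 (3.37) and LTBP3 (3.08) moved by similar amounts, and EFEMP1 (2.09) and FBLN2 (1.48) by less. FBLN2 lost its call under library size scaling (adjusted p of 0.097) and under 6 other alternatives.

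Among other members of the fibrillin, emilin and lysyl oxidase families, edgeR called 0 of 6 tested genes higher and DESeq2 0. Over all tested genes the shares were 8.35% (edgeR) and 6.91% (DESeq2), so 0 of 6 is near the background. Lower calls numbered 2 of 6, against 27.6% of all tested genes, which is also near. Of the 6, 1 (LOXL3) was higher with an unadjusted edgeR p under 0.05. LOXL3 was at 111 and 87.2 CPM in GFP-HI and at 68.5 and 25.1 CPM in GFP-NEG, and its log2 difference of 1.09 ± 0.53 (SE) did not pass (adjusted p of 0.10). LOXL4 was at 9.24 and 5.60 CPM against 17.4 and 2.08 CPM, and its value of -0.38 ± 0.71 did not pass (adjusted p of 0.72) and changed sign with the replicate block (0.19). EMILIN2 (-0.04) and EMILIN3 (0.04) did not pass. The multimerins, emilin relatives known from platelets and endothelium, were lower in GFP-HI: MMRN1 fell by 3.69 ± 0.72 (SE) on the log2 scale and MMRN2 by 1.47 ± 0.62, with adjusted p-values of 1.1e-05 and 0.0498. MMRN2 was not past the threshold in 8 of the 12 alternatives. FBN3 was not tested, with 0 counts in each GFP-HI library and at most 9 in a GFP-NEG library.

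Among 14 genes for microfibril-binding proteins, processing enzymes and copper or sugar transport, 6 were called higher and 2 lower. The shares of all tested genes were 8.35% higher and 27.6% lower. ADAMTS17, a protease family member linked to fibrillin, rose by 3.84 ± 0.60 (SE) on the log2 scale, from 16.8 and 2.85 CPM in GFP-NEG to 143 and 135 CPM in GFP-HI. ADAMTSL5 (3.06) and ADAMTSL3 (2.39), of the ADAMTS-like family, were also higher. ADAMTSL2 (0.57), ADAMTSL4 (-0.29) and THSD4 (-1.44), of the same family, did not pass, and each overlapped between the groups. BMP1, the protease that releases active LOX from its precursor, rose by 2.58 ± 0.55, and PCOLCE, which enhances procollagen cleavage by BMP1, by 2.01 ± 0.76. The BMP1 relatives TLL1 and TLL2 fell by 3.86 and 4.38, from 13 to 58 counts in the GFP-NEG libraries to between 4 and 7 counts in the GFP-HI libraries. SLC2A10, a transporter whose loss causes arterial tortuosity in people, rose by 3.01. ATP7A, which loads copper into secreted enzymes such as LOX, had a value of 0.39 ± 0.55 and did not pass (adjusted p of 0.62, edgeR).

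Fibrillin microfibrils hold latent TGF-beta, and the 3 ligand genes did not move alike. TGFB2 was at 83.1 and 96.4 CPM in GFP-HI and at 25.9 and 11.8 CPM in GFP-NEG, a rise of 2.25 ± 0.54 (SE) on the log2 scale. TGFB3 was at 333 and 399 CPM against 119 and 30.8 CPM, a rise of 2.29 ± 0.66. TGFB1 fell by 1.92 ± 0.55, from 24.5 and 63.3 CPM in GFP-NEG to 11.05 and 12.2 CPM in GFP-HI. Their adjusted p-values were 0.00022, 0.0023 and 0.0021 (edgeR).

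Of 10 genes for enzymes able to degrade elastin, 5 were tested, 2 were called higher and 2 lower. Of all tested genes, 8.35% were called higher and 27.6% lower, and 5 genes are too few to set against these shares. MMP2, gelatinase A of mesenchymal cells, was at 732 and 831 CPM in GFP-HI and at 194 and 43.5 CPM in GFP-NEG and rose by 2.72 ± 0.76 (SE) on the log2 scale. CTSL, a lysosomal cathepsin, rose by 2.86 ± 0.95, but from 15 and 2 counts in GFP-NEG and 90 and 279 counts in GFP-HI. MMP9, gelatinase B of leukocytes, fell by 4.99 ± 0.69, from 265 and 243 counts in GFP-NEG to 14 and 30 counts in GFP-HI. MMP12, the macrophage elastase, had 70 and 53 counts in GFP-NEG and 1 and 3 counts in GFP-HI (adjusted p of 1.5e-05, edgeR). CTSS (-0.56 ± 0.67) did not pass. MMP7, ELANE and PRTN3 had at most 9 counts in any library and were not tested.

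**Figure D5:**
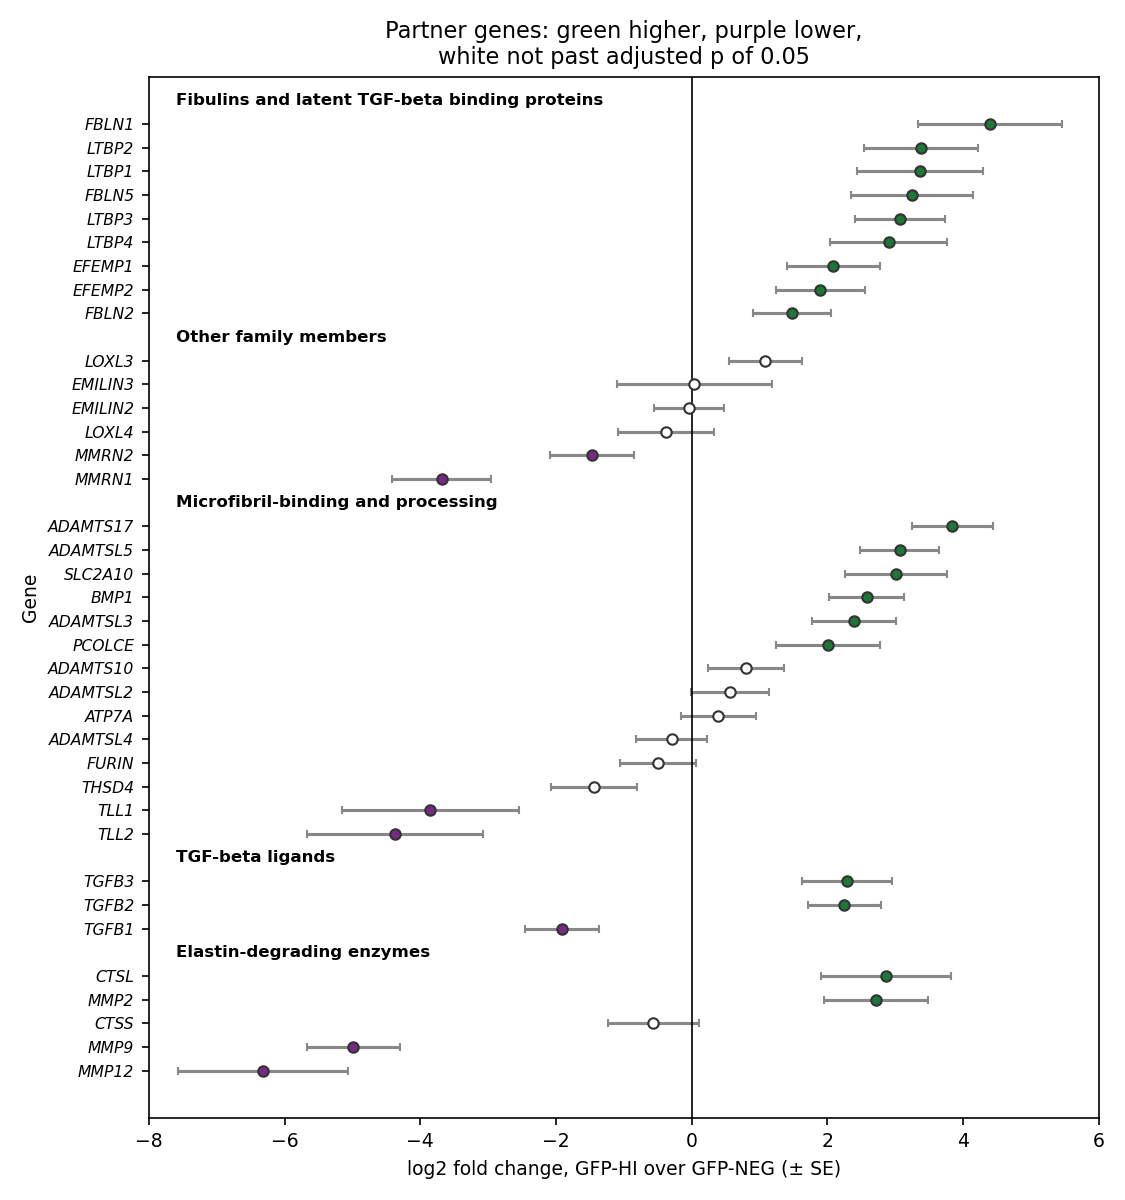
log2 fold change of GFP-HI over GFP-NEG (± SE) for the 37 tested partner genes in 5 lists; green is higher, purple lower and white not past an adjusted p of 0.05. All 9 fibulins and latent TGF-beta binding proteins lie between 1.48 and 4.40, and MMP9, MMP12 and TLL2 are the lowest.

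The profiles of ELN and FBN1 over the 4 libraries were compared with those of 9245 other genes that have a symbol and a mean of at least 10 CPM, by the Euclidean distance between log2 CPM values (1 CPM added) centred on each gene's mean. The genes nearest to ELN were CTTNBP2 (distance 0.22), TSKU (0.36) and PCSK1N (0.36). TSKU encodes tsukushi, a secreted leucine-rich proteoglycan. MFAP2 was the nearest member to ELN, in place 13 with a distance of 0.49, and FBN1 stood in place 311. The genes nearest to FBN1 were SFRP4 (0.16), PDGFRA (0.18) and LTBP2 (0.18), that is a secreted Wnt antagonist, a growth factor receptor of fibroblasts and a microfibril-bound protein. FBN2 was the nearest member to FBN1, in place 24 with a distance of 0.59, and LOXL2 the farthest, in place 1025. With 4 libraries these distances describe the libraries only.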

How the data were processed

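The authors deposited 1 table of raw counts per gene for each library; featureCounts (Subread 1.5.2) and DESeq2 1.37.6 are named in the submitters' processing notes, with no role given, and the aligner, genome build and strand setting are not given in the sources used here. Overlapping genes are therefore uncertain. The authors' deposited comparison table supplied log2 fold changes and adjusted p-values, per the file headers; 4 further columns of normalized values in it were used only to check their headings. Of the Ensembl identifiers, 844 had a symbol in the name table and 834 were renamed.

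The counts were fitted here with edgeR 4.0.16 (R 4.3.3; glmQLFit, glmQLFTest, TMM, filterByExpr, group as the only term), with Benjamini-Hochberg adjustment over 19682 genes and a threshold of 0.05. Gene-wise spread was moderated fully toward the trend (common dispersion 0.239). The standard error is the size of the log2 fold change divided by the square root of F. It therefore follows the trend over all genes and does not measure the spread between replicates of a single gene. With 2 libraries against 2, an exact permutation test of a single gene cannot go below p = 0.333. Differences within a replicate use edgeR log2 CPM with a prior count of 1. On simulated counts with 200 changed genes, 6% of log2 changes of 2 and 32% of changes of 3 were recovered (21046 genes, 0 calls in the wrong direction). The simulation gave all genes the common dispersion and changed few of them. In the data 8.35% of tested genes were called higher and 27.6% lower, so these recovery rates do not carry over.

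The headings of the deposited comparison table name pig 1 and pig 2 in both groups, and same-numbered libraries were taken to share an animal. This is an assumption: 2 of the 4 headings stand over normalized counts of another library than the one they name. Deviations of same-numbered libraries correlated across genes with r = 0.15, from 1 pair of deviations. Alternatives were 3 scalings, 2 filters, DESeq2 1.42.0, the replicate block, thinned GFP-HI counts and each library left out. The members, gene lists and tests were chosen with earlier results of these data known. Named were all 10 members, LGR5, and every partner gene past the threshold with FBLN5, EFEMP2, LTBP4 and LOXL4. Also named were 4 marker genes (COL1A1, ACTA2, MYH11, PTPRC) and the 3 profiles nearest to ELN and FBN1. LOXL3, ATP7A, CTSS, EMILIN2, EMILIN3, ADAMTSL2, ADAMTSL4, THSD4 and the partners too low to test were added after their values were seen. So were the values of the markers CSPG4, DES, ACTG2, DCN and LUM.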

Additional observations from a re-analysis of the deposited data

How the results depend on the processing

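All 10 members kept a log2 fold change above 0 in each of the 12 alternatives. The 9 calls were the same under RLE, upper-quartile and library size scaling, with no filter on low counts, with thinned GFP-HI counts and under DESeq2. The replicate block called all 10, added LOXL2 (adjusted p of 0.037) and changed no other member's call; the number of all genes called higher was 1707 with it. With single libraries left out (edgeR, the lone library of a group being assumed to vary like the others) the number of members called ranged from 1 to 10, their median from 1.99 to 4.55, the partner genes called higher from 4 to 20 and lower from 3 to 6, and all genes called higher from 216 to 1635 and lower from 1575 to 4999. All genes called higher numbered 1083 with upper-quartile factors, 888 with no factors and 951 with the stricter filter, and those called lower 3182 with the stricter filter and 3562 after thinning; the cause was not tested. The median of all genes moved from -0.25 to -0.58 and -0.68 under upper-quartile and library size scaling, and the members' median to 2.52 and 2.47. LOXL4 changed sign with the replicate block (0.19), and ranged from -1.26 to 1.88 with single libraries left out. Against the 5 markers that are not collagens, 1 member was above and 3 were below in both GFP-HI libraries, in place of 5 and 1 against all 8 markers. The filter of at least 10 counts in at least 2 libraries left 7 members called and ended the calls of FBLN2, EFEMP1, EFEMP2, MMRN2, PCOLCE and CTSL, and library size scaling ended those of FBLN2 and CTSL.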
